A study of Mus musculus with 12 samples.

Results

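The 4 libraries whose code begins with 20072R-09, called R-09 libraries here, were set against the other 8 of the 12 libraries of the series, of which 6 carry an FL-06 and 2 an R-07 code. They were picked by that prefix in the titles, with no measured value used. All 12 are bulk RNA-seq libraries of haematopoietic stem cells (HSCs) sorted from C57BL/6 mouse bone marrow (leg, pelvis and hips) by the gate lineage-negative, c-Kit-positive, CD150-positive, CD48-negative and CD34-negative. Each R-09 library is 1 of the 3 of its group: KO IFN-γ 2 (*Bst2* knockout, 24 h after 100 µg of recombinant mouse interferon-γ), KO naive 1 (*Bst2* knockout, untreated), WT IFN-γ 3 (wild type, treated alike) and WT naive 3 (wild type, untreated). The 2 R-07 libraries are both KO, 1 in each treatment, and the FL-06 libraries fill the remaining places, 2 in each WT group and 1 in each KO group. The labels give 1 sort, RNA and library protocol for all 12 (a stranded total RNA kit) and do not say what a code series stands for, nor the sex or age of the mice. They do not tie libraries to separate mice, so the p-values below measure the spread between these libraries.

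Most mRNAs are cut after a signal that reads AATAAA in DNA and receive a poly(A) tail. The mRNAs of the histones made during DNA replication end instead in a short stem-loop bound by SLBP, without a tail, while the variant histones made throughout the cell cycle come from ordinary tailed mRNAs. Several abundant structural RNAs also lack a stable tail: RNase P RNA (*Rpph1*), which matures tRNAs, RNase MRP RNA (*Rmrp*), which helps to process ribosomal RNA, the small nucleolar and Cajal body RNAs that guide RNA modification, and the ribosomal RNA precursor (*Rn45s*). HSCs are the rare, mostly quiescent marrow cells from which all blood lineages arise, and by this gate they carry c-Kit and CD150 and lack surface CD48 and CD34.

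The ends of a few histone and tailed transcripts are shown because the values of these genes differ in direction. Each line gives up to 30 bases of the annotated transcript, read 5′ to 3′ in the sense of the gene from GENCODE M21 (mouse build GRCm38). Capitals mark the stem-loop motif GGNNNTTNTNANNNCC in the first 6 lines and AATAAA in the last 4.
*Hist1h2ao*, chr13:21810886-21810915, plus strand: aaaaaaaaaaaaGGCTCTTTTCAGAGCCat
*Hist1h2ap*, chr13:21833027-21833056, minus strand: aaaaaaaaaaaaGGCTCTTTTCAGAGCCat
*Hist1h2ag*, chr13:22042481-22042510, minus strand: atcgccaacaaaGGCTCTTTTCAGAGCCac
*Hist2h2ac*, chr3:96220416-96220445, minus strand: cgaatccaaaaaGGCTCTTTTTAGAGCCac
*Hist1h3b*, chr13:23752808-23752837, plus strand: ctggaacccaaaGGCTCTTTTCAGAGCCac
*Hist1h4n*, chr13:21831796-21831825, minus strand: ttctcaactaaaGGCCCTTTTCAGGGCCat
*Hist2h2be*, chr3:96223705-96223734, plus strand: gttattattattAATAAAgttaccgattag
*H2afz*, chr3:137866790-137866818, plus strand: gtggataagctcAATAAAggtcatatccc
*H3f3b*, chr11:116021987-116022016, minus strand: ataggccttacaAATAAActagtaagtttg
*Ubb*, chr11:62553173-62553202, plus strand: ttaaaaaatgttAATAAAggttttgttgca
The same 16-base stem-loop stands in *Hist1h2ao*, *Hist1h2ap*, *Hist1h2ag* and *Hist1h3b*. In *Hist1h2ao* and *Hist1h2ap* a run of 12 A lies directly before it.

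The values are the authors' normalized counts per gene, called units here. The R-09 libraries summed to 13.8 to 14.6 M units and the other 8 to 16.1 to 17.7 M. A rough depth read from the spacing of low values was 8.76 to 14.7 M reads in the R-09 libraries and 10.1 to 52.1 M in 7 of the others, and 0.49 M in WT naive 2, where a value listed at 0 says little. The 100 highest genes held 15.1 to 16.4% of the total in the R-09 libraries and 20.0 to 21.8% in the others. *Bst2*, the knocked-out gene, which encodes the interferon-induced membrane protein tetherin, followed the labels. It had 18.8 and 3.67 units in the R-09 KO libraries (treated, naive) against 1514 and 1367 in the R-09 WT libraries, and 0 to 24.8 units in the other KO libraries against 152 to 606 in the other WT libraries.

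Of 10816 genes with at least 100 units in 3 or more libraries, 35.6% were higher and 32.1% lower in the R-09 libraries (3846 and 3474 genes, limma adjusted p below 0.05 with group means in the model). In 29.3% all 4 R-09 libraries lay above all 8 others, and in 26.0% they lay below all 8. A call alone is therefore common here, and sizes, directions and per-library values carry the description. The counts of each list and class below are to be read against these shares. The median log2 fold change over all genes was 0.22. Since the R-09 libraries can meet the minimum alone, a gene can have been tested on its R-09 values alone, which was so for 223 genes, while 620 tested genes had no R-09 value of 100.

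RNase P and MRP RNA, small nucleolar and Cajal body RNAs and the ribosomal RNA precursor were nearly missing from the R-09 libraries. *Rpph1* had 5.70, 48.5, 0 and 33.8 units in the R-09 libraries KO IFN-γ 2, KO naive 1, WT IFN-γ 3 and WT naive 3, an order kept for all such sets of 4 values below. In the other 8 libraries it had 132140 to 265106 units (median 187746). *Rpph1* was among the highest genes of the other libraries and near 0 in each R-09 library (log2 fold change −14.11, SE 0.61, limma adjusted p = 1.443e-09). *Rmrp* had 0, 8.84, 0 and 0 units in the R-09 libraries, against 2401 to 11006 (median 5503) in the others. *Snord15b*, a small nucleolar RNA, and *Scarna13*, a Cajal body RNA, were listed at 0 in all 4 R-09 libraries, against 592 to 3260 and 786 to 1932 units in the others. *Rn45s* had 95.7, 73.9, 52.8 and 47.8 units in the R-09 libraries, against 42576 to 428631 (median 62260) in the others. The groups overlapped for none of these 5 RNAs. Of 128 small nucleolar and Cajal body RNAs in the table, 6 passed the minimum and all 6 were lower, beside 32.1% of all genes. These 6 RNAs, and also *Rpph1*, *Rmrp* and *Rn45s*, reached the minimum through the other libraries alone, which fixed their direction.

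As shares of the library total, RNase P and RNase MRP RNA made up 0 to 0.000392% in the R-09 libraries and 0.779 to 1.53% in the others. *Rn45s* made up 0.000332 to 0.000692% in the R-09 libraries and 0.243 to 2.67% in the others. Each of the 15 transcript classes examined differed between the R-09 libraries and the others when the R-09 label was permuted within groups (exact, two-sided, adjusted p = 0.01235, the smallest that 81 arrangements allow), so the classes are told apart here by the size of the difference.

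**Figure D1:**
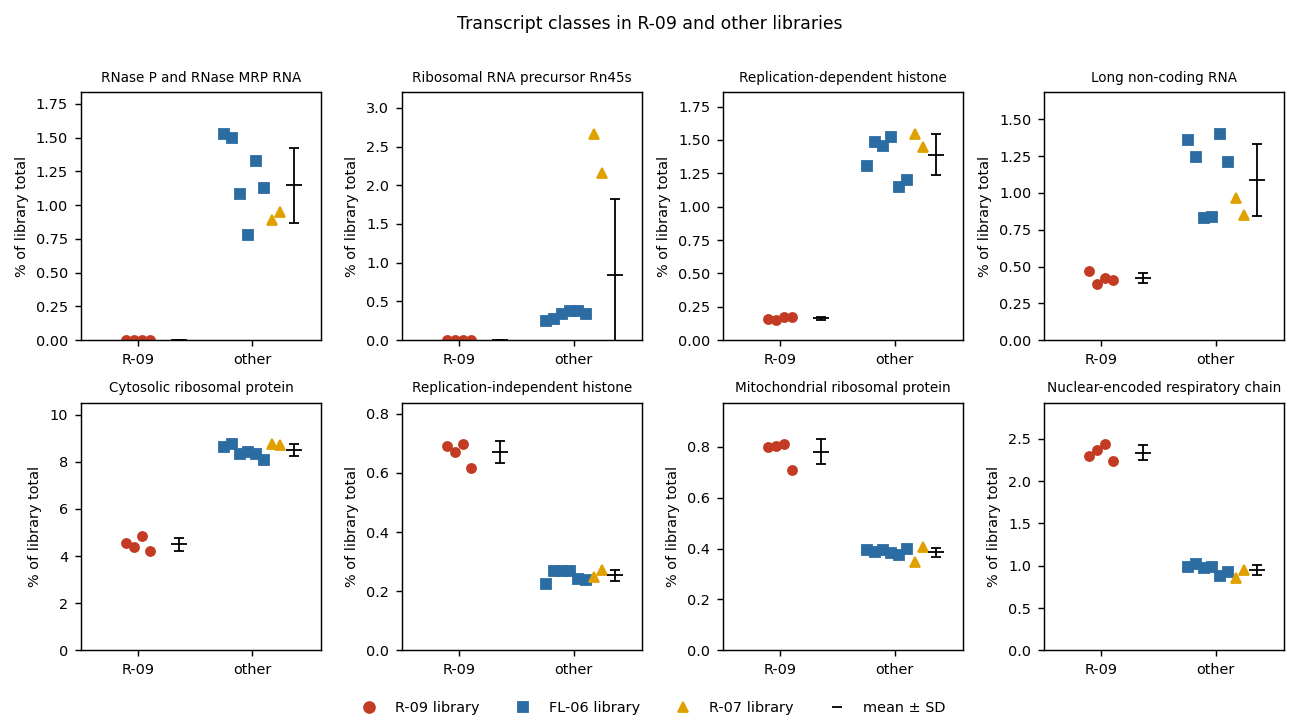
Share of each library's total (percent, linear axes from 0) held by 8 transcript classes in the 4 R-09 libraries (left, circles) and the 8 others (right: FL-06 squares, R-07 triangles), with the mean ± SD beside each. RNase P and MRP RNA, *Rn45s* and replication-dependent histones lie near the floor in R-09 libraries, while replication-independent histones, mitochondrial ribosomal proteins and the respiratory chain lie above the other libraries.

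The histones differed by class. Replication-dependent histones held 0.164 ± 0.012% of the total in the R-09 libraries and 1.39 ± 0.15% in the others (SD, n = 4 and 8). Replication-independent histones held 0.670 ± 0.037% in the R-09 libraries and 0.254 ± 0.019% in the others. Of 61 replication-dependent genes tested, of 68 in the table, 57 were lower, 1 was higher and 3 did not pass. Of all genes, 32.1% were lower. The median log2 fold change was −7.20, against 0.22 over all genes. Most of the 57 reached the minimum through the other libraries alone, which fixed their direction. *Hist1h2af*, which encodes an H2A, had 15.95, 11.5, 2.35 and 0 units in the R-09 libraries, against 5748 to 8706 (median 6996) in the others (log2 fold change −10.39, SE 0.53, limma adjusted p = 5.153e-09). *Hist1h3b*, an H3 gene, had 8.97, 0, 40.0 and 9.73 units in the R-09 libraries, against 3608 to 6331 (median 4846) in the others. *Hist1h4k*, an H4 gene, had 0, 0, 6.88 and 2.11 units in the R-09 libraries, against 1723 to 2961 (median 2418). For these 3 genes every R-09 library lay far below every other library.

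*Hist1h2ao*, an H2A gene with the run of A before its stem-loop, was the exception. It had 16962, 18521, 15227 and 14243 units in the R-09 libraries, against 3616 to 8929 (median 6431) in the others (log2 fold change 1.44, SE 0.21, limma adjusted p = 6.075e-05). All 4 R-09 libraries lay above the other 8. *Hist1h2ap*, with the same 30 bases, had 3085, 2877, 2620 and 3163 units in the R-09 libraries, within the 1842 to 9818 of the others (log2 fold change −0.50, SE 0.36, limma adjusted p = 0.2215). Because the sequences shown are the same in both genes, how reads were divided between them is uncertain. The other genes that did not pass were *Hist2h2be*, an H2B gene with an annotated transcript of 2620 bases that holds AATAAA near its end (log2 fold change 0.25, limma adjusted p = 0.7112), and *Hist1h4i* (−1.87, limma adjusted p = 0.1903). A run of at least 10 A anywhere in the transcript was present in 4 of the 61 genes. The other carriers, *Hist1h2ac* (a run of 15) and *Hist1h2be* (a run of 11), had log2 fold changes of −4.96 and −7.37, so such a run did not go with a high R-09 value in every gene.

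Of the 10 replication-independent histones tested, 8 were higher and 1 lower. *H2afz*, the variant H2A.Z, had 19828, 25918, 25611 and 22297 units in the R-09 libraries, against 5095 to 8311 (median 6419) in the others (log2 fold change 1.82, SE 0.13, limma adjusted p = 1.257e-07). *H3f3b*, which encodes the variant H3.3, had 26093, 31206, 27642 and 35491 units in the R-09 libraries, against 9740 to 12419 (median 11365). Neither gene overlapped between the libraries. Their rise was of the size usual for short transcripts: relative to the median of genes in the same decile of transcript length, the median of the 10 was −0.29, against 0.90 before.

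The motif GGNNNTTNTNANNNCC, searched in the last 100 bases of each annotated transcript, was present in 22 of the 61 replication-dependent genes (36.1%), in 0 of the 10 replication-independent ones and in 26 of 10665 other tested genes (0.244%). On the other strand it was present in 0 of the 61 and in 21 of the 10665 (0.197%), and 0.208% of the 55341 genes of the annotation hold it. AATAAA in the last 50 bases was present in 11 of the 61 (18.03%), 8 of the 10 (80.0%) and 7695 of the 10665 (72.2%), against 10.8% on the other strand and 34.3% of all annotated genes. Within the replication-dependent genes the values did not sort by these letters: the median log2 fold change was −6.94 with AATAAA and −7.28 without, and −6.56 with the stem-loop motif and −7.50 without. Of the 11 replication-dependent genes with AATAAA, 10 were lower. Annotated ends vary, and a missing motif says only that these letters are not in the window. Among the other tested genes, the median log2 fold change was 0.17 with AATAAA and 0.37 without.

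**Figure D2:**
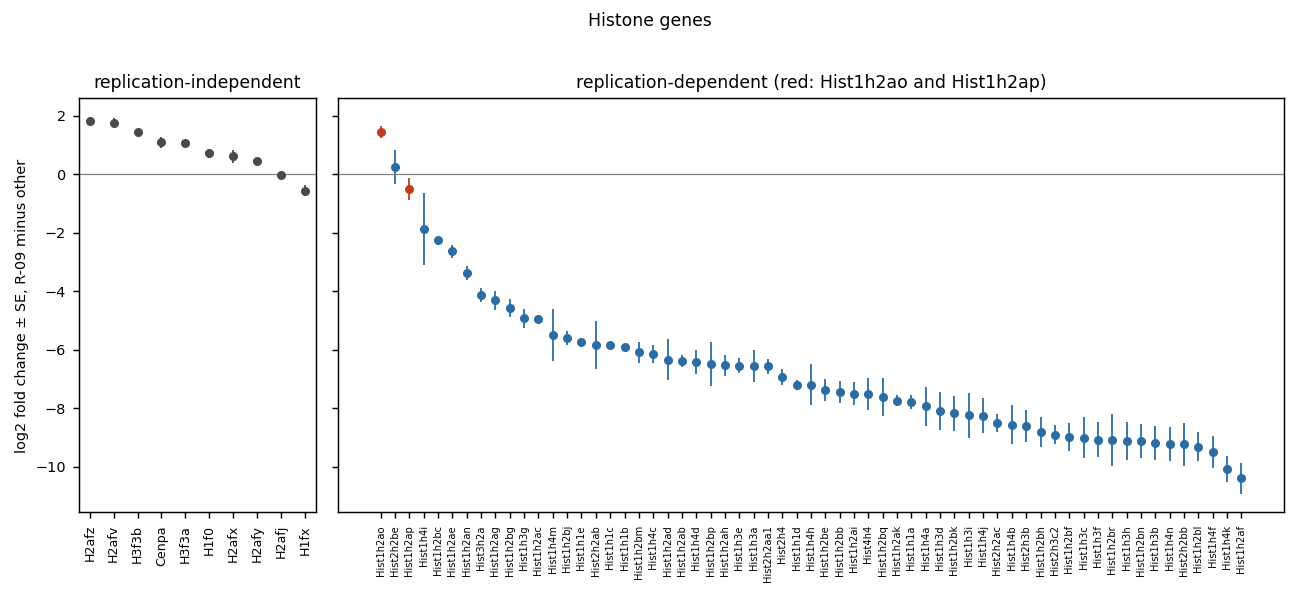
Log2 fold change ± SE, R-09 minus other libraries, for the 10 replication-independent (left) and 61 replication-dependent histone genes (right), each in order of size. *Hist1h2ao* is the only replication-dependent gene that passed the threshold above 0, at 1.44, and 57 lie below it, down to −10.39 for *Hist1h2af*.

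Long nuclear RNAs were also low. *Malat1*, a nuclear RNA of speckles whose end is a triple helix in place of a tail, had 5981, 6181, 5062 and 9550 units in the R-09 libraries, against 64662 to 157839 (median 106321) in the others (log2 fold change −4.01, SE 0.22, limma adjusted p = 1.101e-08). *Xist*, the RNA that coats the inactive X chromosome, had 232, 172, 264 and 223 units in the R-09 libraries, against 10662 to 20760 (median 17605) in the others. *Ddx3y*, a gene of the Y chromosome, had 428, 511, 608 and 516 units in the R-09 libraries, against 306 to 513 in the others (log2 fold change 0.33, limma adjusted p = 0.1811). *Eif2s3y*, a translation factor gene of the Y chromosome, had 468, 638, 692 and 698 units in the R-09 libraries, against 0 to 382 (median 171) in the others, where the 0 was in WT naive 2 (log2 fold change 2.87, SE 1.04, limma adjusted p = 0.02746). *Uty*, also on the Y chromosome, was likewise at 0 in WT naive 2 and did not pass (1.54, limma adjusted p = 0.2169). *Xist* and *Ddx3y* were above 0 in every library. *Kcnq1ot1*, a long RNA of an imprinted region, fell by 4.93 and *Neat1*, the RNA of paraspeckles, fell by 1.68 on the log2 scale. Of a list of 15 nuclear long non-coding RNAs tested, 10 were lower and 1 higher, beside 32.1% lower and 35.6% higher of all genes.

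The wider class of long non-coding RNAs held 0.421 ± 0.036% in the R-09 libraries and 1.09 ± 0.24% in the others (SD, n = 4 and 8). Of 156 tested, 37 were higher and 36 lower, beside 35.6% higher and 32.1% lower of all genes. The median log2 fold change was 0.50, but 0.0 relative to genes of like length, and −0.49 with 100 units in all 12 libraries. The lower share rests largely on abundant RNAs such as *Malat1*. Sum and median differ in sign also for transcribed pseudogenes (0.304 ± 0.009% in the R-09 libraries against 0.447 to 0.587% in the others, median of 60 genes 0.14). Predicted genes with a Gm number held 0.315 to 0.348% in the R-09 libraries and 0.556 to 0.755% in the others, and zinc finger genes (Zfp) held 0.887 to 1.01% in the R-09 libraries, against 1.02 to 1.21% in the others. Genes with a RIKEN clone name held 0.825 to 0.876% in the R-09 libraries, against 0.611 to 0.690% in the others. Small nucleolar RNA host genes held 0.0439 to 0.0526% in the R-09 libraries, against 0.0258 to 0.0432% in the others.

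Transcript length ordered the differences across all genes. Of the 10816 genes, 10736 (99.3%) were matched by symbol to an annotated transcript and split into 10 groups of equal number by length, called length deciles. The median log2 fold change, R-09 minus other, was 1.47 in the shortest decile (126 to 1267 bases) and then 1.36, 1.03, 0.78, 0.53, 0.21, −0.08, −0.55, −1.22 and −2.46 in the longest (6685 to 123179 bases). In the shortest decile 65.7% of genes were higher and 14.6% lower, and in the longest 3.45% were higher and 82.6% lower. The longest decile held 3.58 ± 0.25% of the library total in the R-09 libraries and 15.6 ± 0.7% in the others. The decile next to the shortest held 15.3 ± 0.5% in the R-09 libraries and 8.21 ± 0.22% in the others (SD, n = 4 and 8). All 10 shares differed by the exact permutation test (adjusted p = 0.01235, the smallest possible).

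Across genes, Spearman's rho of the fold change with length was −0.59 and with GC content 0.19 (10736 genes, which share their libraries and are not independent replicates). For R-07 minus FL-06 the same rho values were −0.14 and 0.22, and the decile medians ran from 0.20 in the shortest to −0.08 in the longest. Whether length itself, the annotation of a gene or something that goes with it sets the order was not tested.

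A few genes near the ends of this order are given by library. All but *Ubb* differed by more than most genes of their decile. The middle 50% of genes ran from −3.59 to −1.34 in the longest decile and from 0.37 to 2.35 in the shortest. *Mki67*, the proliferation marker Ki-67 (10061 bases), had 630, 557, 599 and 332 units in the R-09 libraries, against 17574 to 24051 (median 22849) in the others (log2 fold change −5.39, SE 0.16, limma adjusted p = 8.118e-11). *Myh9*, non-muscle myosin heavy chain (7433 bases), had 910, 820, 876 and 663 units in the R-09 libraries, against 25195 to 44394 in the others. *Prpf8*, a core spliceosome protein (7442 bases), had 1208, 1115, 956 and 871 units in the R-09 libraries, against 11816 to 15597. None of the 3 overlapped between the libraries. *Polr2a*, the largest subunit of RNA polymerase II, fell by 4.22 on the log2 scale. At the short end, *Tmsb4x*, thymosin beta 4 (864 bases), had 22614, 28085, 25877 and 29738 units in the R-09 libraries, against 1780 to 3006 (median 2725) in the others (log2 fold change 3.40, SE 0.14, limma adjusted p = 1.132e-09). *Ubb*, a polyubiquitin gene (1499 bases), had 59907, 67195, 65503 and 74018 units in the R-09 libraries, against 18019 to 27371. Its log2 fold change of 1.59 lay within the middle 50% of its decile, the next to the shortest (0.58 to 2.1).

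**Figure D3:**
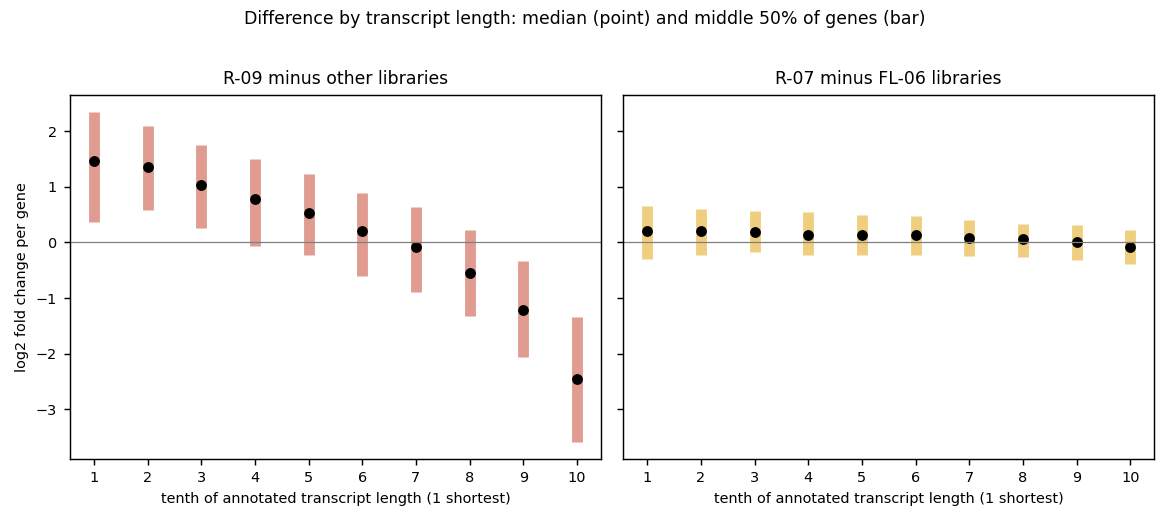
Median log2 fold change (point) and middle 50% of genes (bar) in deciles of annotated transcript length, for R-09 minus other libraries (left) and R-07 minus FL-06 libraries (right). The left panel descends from 1.47 to −2.46 and the right panel from 0.20 to −0.08.

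Short transcripts did not all rise. Cytosolic ribosomal proteins, which build the ribosome, held 4.50 ± 0.27% in the R-09 libraries and 8.49 ± 0.25% in the others (SD, n = 4 and 8), and of 83 genes tested 57 were lower and 9 higher. Relative to genes of like length their median was −2.41. *Rpl13a*, a protein of the large subunit, had 4771, 5522, 5783 and 5363 units in the R-09 libraries, against 36631 to 62289 (median 57905) in the others. *Rpl22* fell by 3.80 on the log2 scale (SE 0.24, limma adjusted p = 3.097e-08). Many of these genes have processed copies in the genome, so their values are uncertain.

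Most nuclear genes of the mitochondrial ribosome and respiratory chain were higher, beside 35.6% higher and 32.1% lower of all genes. Mitochondrial ribosomal proteins held 0.781 ± 0.049% in the R-09 libraries and 0.386 ± 0.018% in the others (SD, n = 4 and 8), with 57 of 78 genes higher and 5 lower. Nuclear-encoded subunits of the respiratory chain and ATP synthase held 2.33 ± 0.09% in the R-09 libraries and 0.946 ± 0.056% in the others, with 69 of 89 higher and 3 lower. *Ndufb2*, a subunit of complex I, had 1838, 2729, 2027 and 1997 units in the R-09 libraries, against 150 to 345 (median 301) in the others. *Mrps18c* rose by 2.98 on the log2 scale (SE 0.44, limma adjusted p = 6.244e-05). Against genes of like length the medians of the 2 lists were 0.09 and 0.12, close to 0. Some members were lower, such as *Atp5mpl*, a small ATP synthase subunit (−1.50, limma adjusted p = 0.005262). The proteasome list, which degrades ubiquitin-tagged proteins, was alike: 26 of 31 higher and 1 lower, with a median of 1.10 and of −0.07 against genes of like length.

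Markers of mature myeloid cells were higher in the R-09 libraries. The 31 neutrophil granule and calprotectin genes summed to 126226, 266309, 144690 and 220685 units in the R-09 libraries, against 11879 to 19401 (median 15532) in the others (log2 difference 3.56). The lowest R-09 sum was above the highest of the others (two-sided exact permutation p = 0.01235, the smallest possible, and adjusted p = 0.0194 over 11 cell type lists). Of the 24 genes tested all 24 were higher, beside 35.6% of all genes, and 22 did not overlap, beside 29.3% of all genes. Some of the 24 reached the minimum through the R-09 libraries alone, which fixed their direction. Among them were *Ifitm6*, *Ltb4r1* and *Mmp8*, with at most 3.65, 13.1 and 21.95 units in the others. With at least 100 units required in all 12 libraries, 14 were higher and none lower. The median log2 fold change of all 24 was 3.78, and 2.56 relative to genes of like length. *Stfa1*, *Stfa2*, *Stfa3* and *BC100530* were listed at 0 in every library.

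*S100a8*, a calprotectin subunit of neutrophils and monocytes, had 13525, 38198, 11818 and 28681 units in the R-09 libraries, against 195 to 810 (median 330) in the others (log2 fold change 5.85, SE 0.35, limma adjusted p = 2.041e-08). *Camp*, the cathelicidin of secondary granules, had 7905, 24124, 8460 and 17096 units in the R-09 libraries, against 324 to 826 (median 497). *Chil3*, a chitinase-like protein of myeloid cells, rose by 4.70 and *Ngp*, neutrophilic granule protein, by 3.56 on the log2 scale. Within the R-09 libraries both IFN-γ libraries lay below both naive ones for *S100a8* and *Camp*. The primary granule genes, made earlier in the lineage, rose too. *Mpo*, myeloperoxidase, had 23700, 25055, 33177 and 26891 units in the R-09 libraries, against 3344 to 5504 (median 4361) in the others (log2 fold change 2.64, SE 0.10, limma adjusted p = 3.504e-10). *Elane*, neutrophil elastase, had 5645, 8857, 9091 and 8992 units in the R-09 libraries, against 391 to 993 (median 543). No R-09 library overlapped with the others for these genes.

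In bulk libraries, a change in the number of cells of a type and a change in RNA per cell cannot be told apart. The markers' levels per cell were not measured. The fall in long transcripts and structural RNAs and the rise in myeloid markers occur in the same 4 libraries, and how far they share an origin was not tested.

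Monocyte and macrophage markers summed to 5525, 13656, 8669 and 8983 units in the R-09 libraries, against 1353 to 2105 (median 1479) in the others, with no overlap (log2 difference 2.47, exact permutation adjusted p = 0.0194). Of 14 genes tested 11 were higher and none lower, beside 35.6% higher and 32.1% lower of all genes. *C1qb*, a chain of complement C1q made by macrophages, had 423, 1369, 875 and 968 units in the R-09 libraries, against 0 to 84.1 (median 29.9) in the others, where the 0 was in WT naive 2 (log2 fold change 5.55, SE 1.05, limma adjusted p = 0.0004893). *C1qa* and *C1qc* rose by 5.45 and 5.38 on the log2 scale. *C1qa* (at most 41.6 units in the others) and *C1qb* reached the minimum through the R-09 libraries alone, which fixed their direction. No monocyte marker with at least 100 units in all 12 libraries was called, and the median of those was 0.69.

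Mast cell, basophil and eosinophil markers summed to 687, 1989, 1464 and 1970 units in the R-09 libraries, against 0 to 349 (median 175) in the others (exact permutation adjusted p = 0.04527, and 0.02546 to 0.1358 with 1 library left out, passing in 2 of 12 cases). *Mcpt8*, a basophil protease, had 56.7, 311, 290 and 202 units in the R-09 libraries, against at most 1.07 in the others (log2 fold change 7.36, SE 1.61, limma adjusted p = 0.001485). *Prg2*, eosinophil major basic protein, had 42.5, 264, 146 and 352 units in the R-09 libraries, against 0 to 46.3, an overlap at KO IFN-γ 2. All 5 markers tested were higher, but none of them had 100 units in all 12 libraries, and *Mcpt8*, *Prg2* and *Prss34* reached the minimum through the R-09 libraries alone, which fixed their direction. Of the 5, 1 was called without WT naive 3, 2 without WT IFN-γ 3, 2 without KO naive 1 and 4 without KO IFN-γ 2. *Tpsab1* was listed at 0 in every library.

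Megakaryocyte and platelet markers summed to 78554, 73583, 80052 and 74948 units in the R-09 libraries, against 24470 to 32415 (median 29561) in the others, with no overlap (log2 difference 1.42, exact permutation adjusted p = 0.0194). Of 21 tested, 14 were higher and 2 lower, beside 35.6% higher and 32.1% lower of all genes. Their median was 1.83, and 1.12 relative to genes of like length. With at least 100 units in all 12 libraries 8 were higher and 2 lower, with a median of 0.97. *Gp9*, platelet glycoprotein IX, had 1212, 1365, 1341 and 1387 units in the R-09 libraries, against 0 to 201 (median 91.7) in the others, where the 0 was in WT naive 2 (log2 fold change 4.43, SE 0.97, limma adjusted p = 0.001493). *Gp1bb* and *Treml1*, 2 more platelet receptor genes, rose by 3.65 and 4.03 on the log2 scale (SE 0.66 and 1.04). *Treml1* was likewise at 0 in WT naive 2. Unlike the neutrophil sum, this sum was nearly the same in the 4 R-09 libraries.

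Of the few lymphoid markers tested, more were higher than lower. T and NK markers summed to 3610 to 4259 units in the R-09 libraries, against 66.8 to 494 in the others (exact permutation adjusted p = 0.0194), but 89.5% of the R-09 sum was *Nkg7*, a granule protein gene, with 3569, 3720, 3732 and 3208 units in the R-09 libraries, against 33.6 to 304 in the others. *Cd3e*, the defining T cell receptor component, was listed at 0 in every library. *Cd3g* and *Klrd1* were at 0 in all 8 others but not in every R-09 library. *Lck* was higher in the R-09 libraries, with overlap (log2 fold change 1.55, limma adjusted p = 0.03694). B lineage markers summed to 4306 to 5232 units in the R-09 libraries, against 1030 to 2226 in the others (exact permutation adjusted p = 0.0194), of which *Xbp1*, a factor of plasma cells and of the unfolded protein response in many cells, was 64.6% in the R-09 libraries. Of 7 B lineage genes tested 3 were higher and 1 lower, beside 35.6% higher and 32.1% lower of all genes. *Cd79b* had 868, 847, 926 and 825 units in the R-09 libraries, against 47.3 to 163 in the others (log2 fold change 3.25). *Jchain* had 169 to 304 units in the R-09 libraries, against 0 to 9.25 (7.10). The lower gene was *Rag1*, the recombinase of lymphoid progenitors (log2 fold change −5.35, limma adjusted p = 0.003546), at 0 to 2.99 units in the R-09 libraries, against 0 to 208 in the others. *Jchain* passed the minimum through the R-09 libraries alone and *Rag1* through the others alone, which fixed their directions.

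The erythroid, dendritic, endothelial and stromal sums overlapped between the libraries. Erythroid markers summed to 65900 to 110030 units in the R-09 libraries, against 60192 to 73200 in the others (exact permutation adjusted p = 0.03395, and 0.02546 to 0.1019 with 1 library left out, passing in 3 of 12 cases). Of 20 tested, 10 were higher and 4 lower, beside 35.6% higher and 32.1% lower of all genes. Haemoglobin genes, which mark red cells, held 0.0112 to 0.0393% in the R-09 libraries and 0.00168 to 0.00537% in the others. *Tfrc*, the transferrin receptor (4890 bases), fell by 2.34 on the log2 scale. The dendritic sum was 1585 to 2047 units in the R-09 libraries, against 1778 to 2467 in the others (exact permutation adjusted p = 0.258), and the endothelial sum was 4064 to 4566 units in the R-09 libraries, against 3552 to 5831 in the others (0.7901 by the same test). Stromal markers summed to 582 to 853 units in the R-09 libraries, against 635 to 1798 in the others (exact permutation adjusted p = 0.0194, and 0.02546 to 0.1019 with 1 library left out, passing in 6 of 12 cases), with 1 of 4 tested genes lower. *Cdh5*, the endothelial cadherin, was listed at 0 in all 4 R-09 libraries, while *Egfl7* and *Emcn* rose by 1.82 and 2.48 on the log2 scale. Of 7 endothelial genes tested 2 were higher and 4 lower. Of 18 stromal genes, 6 were at 0 in all 4 R-09 libraries, among them *Col1a1*, collagen I. All 8 others were at 0 for 6 as well, among them *Bglap*, *Adipoq* and *Dcn*, which were not at 0 in every R-09 library.

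**Figure D4:**
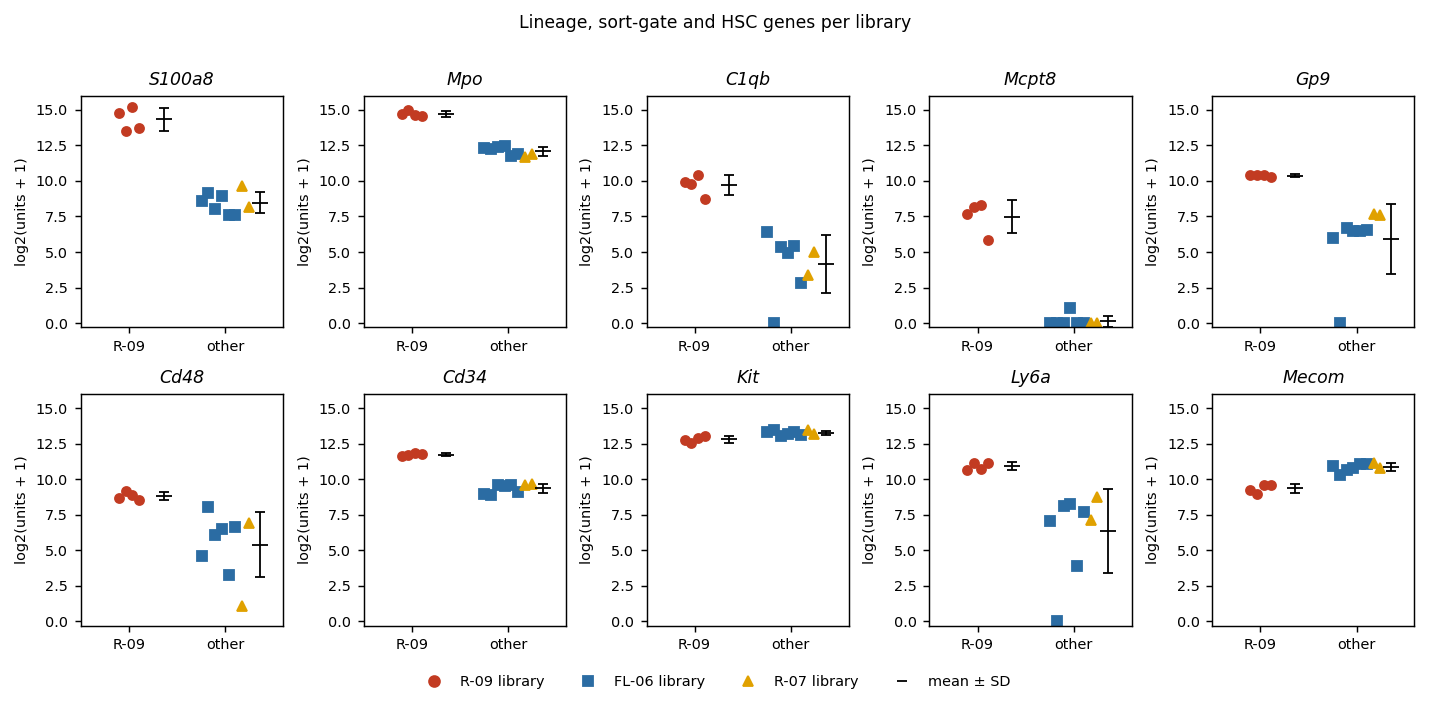
Log2(units + 1) of 10 lineage, sort-gate and HSC genes in the 4 R-09 libraries (left, circles) and the 8 others (right: FL-06 squares, R-07 triangles), with the mean ± SD beside each. *S100a8*, *Mpo*, *C1qb*, *Mcpt8*, *Gp9*, *Cd48*, *Cd34* and *Ly6a* are higher in the R-09 libraries, and *Kit* and *Mecom* are lower.

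HSC genes were split in direction. The summed level of the HSC list was 92423 to 112059 units in the R-09 libraries, against 78483 to 98731 in the others, with overlap (log2 difference 0.28, exact permutation adjusted p = 0.0194). Of 32 tested genes 13 were higher and 10 lower, beside 35.6% higher and 32.1% lower of all genes, with a median of 0.18, and 0.15 relative to genes of like length. *Ly6a*, the surface marker Sca-1 (955 bases), had 2222, 1647, 2303 and 1619 units in the R-09 libraries, against 0 to 434 (median 171) in the others, where the 0 was in WT naive 2 (log2 fold change 4.56, SE 1.12, limma adjusted p = 0.003328). *Procr*, the HSC surface marker EPCR (1597 bases), and *Pdzk1ip1* (1129 bases) rose by 1.91 and 3.32 on the log2 scale. Several transcription factor genes went the other way. *Mecom*, which encodes Evi1 (5692 bases), had 779, 759, 504 and 602 units in the R-09 libraries, against 1278 to 2262 (median 1851) in the others (log2 fold change −1.49, SE 0.14, limma adjusted p = 1.595e-06). *Hlf* (5642 bases), *Tal1* (4213 bases) and *Erg* (3249 bases), factors of HSC self-renewal and blood formation, had log2 fold changes of −1.52, −2.91 and −2.80. The medians of their length deciles were −1.22, −0.08 and 0.21. *Ndn* (3694 bases), also of the HSC list, rose by 1.89.

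The genes of the sort gate were read as mRNA, whereas the gate acts on surface protein. *Cd34*, a marker the gate excludes, had 3500, 3629, 3331 and 3098 units in the R-09 libraries, against 462 to 821 (median 744) in the others, with no overlap (log2 fold change 2.37, SE 0.15, limma adjusted p = 3.026e-08). *Cd48*, also excluded, had 368, 467, 582 and 407 units in the R-09 libraries, against 1.08 to 268 (median 77.9), with no overlap (log2 fold change 3.43, SE 0.87, limma adjusted p = 0.003977). *Kit*, required by the gate, had 8360, 7616, 5902 and 6753 units in the R-09 libraries, against 8462 to 11369 (median 9725), just without overlap (log2 fold change −0.46, SE 0.11, limma adjusted p = 0.002184). *Slamf1*, which encodes the required CD150, had 696, 569, 642 and 715 units in the R-09 libraries, within the 281 to 768 of the others (limma adjusted p = 0.06112).

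Early response genes rose in most cases. Of 25 immediate early genes, which cells switch on within minutes of stimulation, 17 were higher and 3 lower, beside 35.6% higher and 32.1% lower of all genes, with a median of 1.24, and 1.09 relative to genes of like length. *Dusp1*, a phosphatase that ends MAP kinase signals, had 15884, 11513, 11332 and 21342 units in the R-09 libraries, against 610 to 2210 (median 1134) in the others (log2 fold change 3.69, SE 0.26, limma adjusted p = 8.219e-08). *Dusp2* and *Atf3* rose by 3.78 and 3.84 on the log2 scale. *Atf3* and *Cyr61*, also of this list, reached the minimum through the R-09 libraries alone, which fixed their direction. They had at most 79.5 and 21.6 units in the others. Heat shock and unfolded protein genes were split, 7 higher and 9 lower of 20, beside the same shares of all genes. *Hsp90aa1*, a chaperone, had 10998, 14065, 11969 and 10647 units in the R-09 libraries, against 45636 to 117081 (median 107224) in the others.

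Glycolysis genes were higher in 16 of 21 cases and lower in 4, beside 35.6% higher and 32.1% lower of all genes, with a median of 1.39. *Ldha*, lactate dehydrogenase A, had 34949, 37592, 40830 and 35672 units in the R-09 libraries, against 6273 to 9015 (median 7687) in the others (log2 fold change 2.29, SE 0.10, limma adjusted p = 2.191e-09). Actin and cytoskeleton genes were higher in 12 of 20 and lower in 8, of which *Coro1a*, an actin regulator of blood cells, rose by 2.59. The splicing and polymerase list was lower in 16 of 20 and higher in 2, with a median of −1.28, and −1.10 relative to genes of like length. *Ddx17*, an RNA helicase, had 259, 431, 259 and 256 units in the R-09 libraries, against 6050 to 8087 (median 7390), and *Sfpq*, a nuclear RNA-binding protein, fell by 3.66 on the log2 scale.

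Cell cycle genes followed no single direction, and the counts of the lists that follow are to be read against the 35.6% higher and 32.1% lower of all genes. Of 40 G1/S genes 20 were higher and 9 lower, with *Rfc2*, a clamp loader subunit, higher, at 2.00 on the log2 scale, and *Pola1*, a DNA polymerase subunit, lower, at −2.22. Of 35 G2/M genes 15 were higher and 15 lower, and those that fell most had long transcripts, such as *Mki67*, *Cenpf* (11130 bases, −3.83) and *Cenpe* (7910 bases, −3.13), which act on chromosomes and kinetochores in mitosis. Of 18 quiescence genes and CDK inhibitors 8 were higher and 5 lower. *Cdkn1b*, the inhibitor p27 (4552 bases), had 35.1, 39.5, 15.03 and 42.2 units in the R-09 libraries, against 647 to 1216 (median 918) in the others (log2 fold change −4.90, SE 0.28, limma adjusted p = 1.547e-08). *Cdkn1c*, the inhibitor p57 (1901 bases), rose by 1.25. Of 17 p53 target and apoptosis genes 5 were higher, among them *Bax* (1.88), and 5 lower, among them *Bak1* (−6.93), both of which encode effectors of cell death. *Cdkn1b* and *Bak1*, with at most 42.2 and 38.7 units in the R-09 libraries, reached the minimum through the other libraries alone, which fixed their direction. Of 4 imprinted growth genes 2 were higher and 2 lower.

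Several of the largest differences were in genes with a near-identical copy. For 4 such pairs the values were divided differently in the R-09 libraries. *Oaz1-ps*, a copy of the antizyme gene *Oaz1*, had 8456, 8578, 12561 and 8843 units in the R-09 libraries. The copy was listed at 0 in all 8 others. It held 37.3 to 47.8% of the pair's sum in the R-09 libraries, while *Oaz1* itself was higher there (log2 fold change 1.69, limma adjusted p = 1.42e-07). *Eno1b* held 28.7 to 43.8% of its sum with the glycolysis gene *Eno1* in the R-09 libraries and 0.456 to 8.46% in the others. The reverse held for *H2-Q4*, a class Ib MHC gene, at 1.04 to 1.34% of its sum with *H2-Q7* in the R-09 libraries and 51.0 to 83.0% in the others. *Ndufb4c* held 4.34 to 9.79% of its sum with *Ndufb4* in the R-09 libraries and 59.2 to 84.3% in the others. For 3 further pairs the R-09 shares lay within those of the others: *Rnaset2a* held 35.3 to 44.8% of its sum with *Rnaset2b* in the R-09 libraries and 0 to 75.8% in the others. *Dynlt1c* held 70.6 to 76.1% of its sum with *Dynlt1b* in the R-09 libraries and 0 to 93.1% in the others. *Atp6v0c-ps2* held 24.5 to 39.2% of its sum with *Atp6v0c* in the R-09 libraries and 0 to 62.3% in the others. The sources used here do not state how reads that match both copies were assigned, so the fold changes of these genes are uncertain.

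Antigen presentation genes were mostly higher, and interferon-stimulated genes were called about as often as genes in all (35.6% higher and 32.1% lower). Of 10 MHC class II genes 8 were higher and none lower, with a median of 1.83, and 0.77 relative to genes of like length. Of 21 MHC class I genes 14 were higher and 7 lower, with a median of 1.06, but only 0.01 relative to genes of like length. Of 46 interferon-stimulated genes 14 were higher, among them *Ifitm3*, an antiviral membrane protein (3.28), and 13 lower, among them *Parp14*, an ADP-ribosyltransferase with a transcript of 7417 bases (−3.40).

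The difference between treated and naive libraries was then compared between the R-09 libraries and the others, as an interaction. No gene passed in 10816 (0.0%, limma adjusted p below 0.05), and 318 had an unadjusted p below 0.05 where 541 would be expected by chance. Leaving out 1 library at a time gave 0 to 2 genes higher and 0 to 5 lower for this interaction. *Cd74*, which encodes the chaperone of class II molecules, had 8293 and 10261 units in the treated R-09 libraries (KO, WT) against 3612 and 3535 in the naive ones. In the other libraries it had 3560 to 4731 units when treated against 429 to 1070 when naive. Treated libraries lay above naive ones within both sets, and the log2 difference of the effects, R-09 minus other, was −1.19 (SE 0.32, limma adjusted p = 1.0). *H2-Ab1*, a class II chain, had 4298 and 5858 units in the treated R-09 libraries against 2476 and 3006 in the naive ones, and 1107 to 1913 in the other treated libraries against 409 to 588 in the other naive ones.

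*Irf1*, a transcription factor induced by IFN-γ, was higher in the R-09 libraries as a whole (log2 fold change 1.00) with no gap between treated (2242 and 2415) and naive libraries (2177 and 2861). Over the lists, the difference of effects was below 0 in 41 of 46 interferon-stimulated genes (median −1.08), 19 of 21 class I genes (−0.36) and 10 of 10 class II genes (−1.21), beside 59.1% of all genes (median −0.10). It was also below 0 in markers of other cells, in 22 of 24 neutrophil genes (−0.70) and 13 of 14 monocyte and macrophage genes (−1.73). Without the shallow WT naive 2 the medians were −0.88 (interferon-stimulated), −0.31 (class I), −0.94 (class II), −0.84 (neutrophil), −1.38 (monocyte and macrophage) and −0.05 (all genes). With 1 R-09 library in each group, no spread within an R-09 group was measured.

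**Figure D5:**
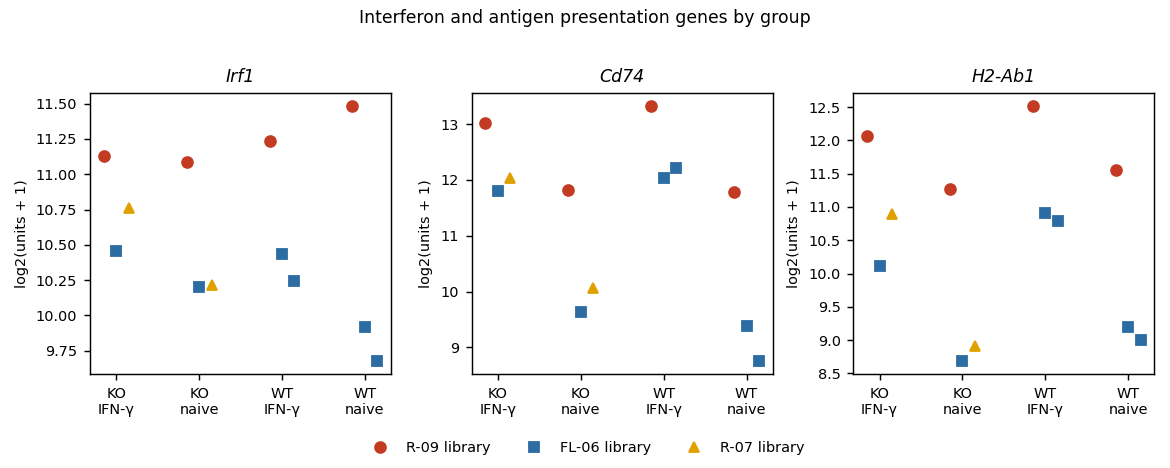
Log2(units + 1) of *Irf1*, *Cd74* and *H2-Ab1* by group (treated left of naive, KO left of WT) in R-09 (circles), FL-06 (squares) and R-07 libraries (triangles), with axes that do not start at 0. *Cd74* and *H2-Ab1* are higher in treated libraries of each series, while *Irf1* in the R-09 libraries stays between 2177 and 2861 units.

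The effect of the knockout did not differ detectably between the R-09 libraries and the others: 0.0% of genes passed (limma adjusted p below 0.05), with 351 at an unadjusted p below 0.05. Leaving out 1 library at a time gave 0 to 3 genes higher and 0 to 4 lower.

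The R-07 libraries held the RNAs that were nearly missing from the R-09 libraries. Among KO libraries, R-07 minus FL-06, 0.536% of genes were higher and 3.03% lower (58 and 328 genes, limma adjusted p below 0.05). *Rn45s* had 346384 and 428631 units in the R-07 libraries (treated, naive) against 59974 and 64013 in the FL-06 KO libraries (log2 fold change 2.50, SE 0.18, limma adjusted p = 0.0002773). Of the genes lower in the R-07 libraries, *Rpl37*, a ribosomal protein gene, had 6272 and 5556 units there against 29256 and 31833 in the FL-06 KO libraries. *Atp5mpl* had 2360 and 1265 units in the R-07 libraries against 5914 and 7357. *Malat1* was lower in both comparisons, with a log2 fold change of −0.92 in R-07 minus FL-06 and of −4.01 in R-09 minus the others. *Lars2*, mitochondrial leucyl-tRNA synthetase, was higher in the R-07 libraries (1.72, limma adjusted p = 0.009231), whereas it was lower in the R-09 libraries (−1.70, limma adjusted p = 0.001704). The R-07 counts rest on single libraries: without KO naive 2, 1 gene was higher and 1 lower, and without WT naive 2 the counts were 304 and 628.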

How the data were processed

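Per the submitters' processing notes, STAR and DESeq were used, without versions or roles. The sources used here do not give the genome build, annotation or strand handling. The authors deposited normalized counts per gene, a signal that is never negative and is not whole reads, so no count model was used and limma-trend, written as the test for such values, took its place. Of 24972 rows, 26 with names turned into dates were left out. Genes with at least 100 units in 3 or more libraries (10816) were analysed as log2(value + 1), which understates changes of low genes, with 4 group means and an R-09 term (limma 3.58.1, R 4.3.3, residual df 7), and adjusted by Benjamini-Hochberg at 0.05. The R-07 term and both interactions were fitted likewise (residual df 6 and 5). Sums and shares were tested by exact permutation of the R-09 label within groups (81 arrangements, two-sided; Python 3.11.15, scipy 1.17.1). The fits were tested on simulated data.

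The 28 gene lists and the members were chosen with earlier results of these data known. Named genes are *Bst2*, the gate genes, the 10 largest rises and falls with no overlap within groups, and up to 4 members of each list and 2 of each class past the threshold, and genes added after their values were seen (among them *Hist1h2ap*, *Xist* and *Rpl13a*). Alternatives are given in the closing section. Relative to genes of like length means minus the median of the gene's length decile, a step added after the data were seen. The results of 1 gene are not reported here.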

Additional observations from a re-analysis of the deposited data

Results flagged for a closer look

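Of 52 sets of values examined for a library far from its fellows, 1 stood out, where chance alone gives about 1 in 20. The share of mitochondrial ribosomal proteins in the R-09 library KO IFN-γ 2 was 0.708% of the total, against 0.800 to 0.811% in the other 3 R-09 libraries. It stayed above every library of the other 2 code series (0.348 to 0.406%).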

How the results depend on the processing

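The R-09 counts of 3846 higher and 3474 lower genes lay between 3117 and 4262 and between 3200 and 3714 when 1 library was left out, and were 3619 and 3379 with the replicate block. With naive libraries only, 2112 were higher, with fewer samples. With equal library totals the split was 4575 and 3028 (a median shift to 0.46). Deviations of same-numbered libraries correlated at −0.504 to 0.383 (median 0.009), above 0.1 in 6 of 18 pairs. For libraries of other numbers the range was −0.515 to 0.407 (median 0.012), above 0.1 in 10 of 36 pairs. No pairing by replicate number was seen, but with 1 R-09 library per group this check is weak. The R-07 counts of 58 higher and 328 lower were 18 and 151 with the replicate block, 237 and 601 with array weights, 1 to 304 and 1 to 628 with 1 library left out, and 132 higher with 100 units in all 12 libraries, 159 with quantile normalization and 120 with equal totals. They left the range within 1.5 times without any 1 of the 4 KO libraries of these series, WT IFN-γ 1 or WT naive 2, and the higher count also without WT IFN-γ 2 or WT IFN-γ 3. The genotype interaction called 5 higher and 2 lower with array weights, and 0 to 3 and 0 to 4 with 1 library left out (any R-09 library, or WT naive 2). The IFN-γ interaction called 1 and 3 with array weights, 2 lower with quantile normalization, and 0 to 2 and 0 to 5 with 1 library left out (WT naive 3, KO naive 1, KO IFN-γ 2, WT naive 2 or KO IFN-γ 3). The cause was not tested.

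The share of *Rn45s* differed by −0.845 percentage points on the linear scale (exact permutation adjusted p = 0.1235), where both R-07 libraries dominate. Rescaled without the 50 highest genes, the endothelial log2 difference was 0.10, the stromal −0.53 (exact permutation adjusted p = 0.06036) and that of the length decile 6 was 0.03 (0.1111). With 1 library left out, log2 differences of the marker sums lay between 0.22 and 0.35 (HSC), 3.35 and 3.67 (neutrophil), 2.23 and 2.72 (monocyte), 1.27 and 1.51 (B), 3.30 and 3.96 (T and NK), 0.20 and 0.44 (erythroid), 1.36 and 1.47 (megakaryocyte), 2.92 and 5.03 (mast), −0.11 and 0.05 (endothelium, above 0 at 0.02, 0.02, 0.03 and 0.05) and −0.77 and −0.41 (stroma). Leaving out an R-09 library leaves 27 arrangements, too few to pass over 11 lists. The mast, erythroid and stromal sums also lost their calls without 6, 5 and 2 of the 8 other libraries (highest exact permutation adjusted p over all cases 0.1358, 0.1019 and 0.1019).

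Medians of lists that changed sign relative to genes of like length were −0.29 (replication-independent histones), −0.83 (small nucleolar RNA host genes), −0.34 (B), −0.42 (erythroid), 0.12 (endothelium), −0.22 (G1/S), −0.07 (proteasome), −0.24 (p53) and −0.32 (actin). The long non-coding median was −0.49 with 100 units in all 12 libraries, −0.31 in KO and −0.39 in IFN-γ libraries only, that of host genes −0.05 in KO libraries only, and with 100 units in all 12 those of HSC, dendritic and sex-linked genes were −0.08, −1.07 and −2.93. Of 3945 values for 159 named genes, 3795 kept direction and side of the threshold, 132 (26 genes) fell short and 18 (6 genes) came to pass it. Low values in WT naive 2 limit genes below about 100 units.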
